A study of Mus musculus with 5 samples.

Results

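Axon guidance genes encode the secreted and membrane-bound cues that steer growing nerve fibres, and the receptors that read them. They were examined here in Neuro-2A (N2A) cells, an established mouse neuroblastoma line, after knockdown of Upf1, which encodes the RNA helicase at the centre of nonsense-mediated mRNA decay (NMD). Members were chosen by gene symbol and not by any measured value, although earlier results of these data were known when the families were chosen. All protein-coding genes of the semaphorin (classes 3 to 7), neuropilin, plexin, Slit, Robo, netrin, Dcc and Unc5, ephrin and Eph receptor families were taken, which gave 69 genes of the 21900 protein-coding genes and 55573 genes in the table. They comprised 35 ligands and 34 receptors, although membrane-bound semaphorins and ephrins can also signal into the cell that carries them.

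All 5 libraries were made from poly(A)-selected RNA of N2A cells grown in serum-containing medium and transfected with 60 pmol of siRNA. In the siCtl group (2 libraries, replicates 1 and 3) the siRNA was Silencer Negative Control #1, a commercial non-targeting sequence. In the siUpf1 group (3 libraries, replicates 1, 2 and 3) it was 1 siRNA against Upf1. An effect of UPF1 loss and another effect of either siRNA cannot be told apart within these libraries. The question behind the comparison is which mRNAs of neural cells depend on UPF1 for their level.

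NMD degrades mRNAs on which translation ends too early, for example because an exon junction lies downstream of the stop codon or because a reading frame in the 5′ untranslated region (5′ UTR) is translated first. Guidance systems work in pairs of cue and receptor. Class 3 semaphorins are secreted and bind neuropilins, which signal through plexins, whereas the other semaphorins mostly bind plexins directly. Plexins act on small GTPases, and the growth cone usually collapses or turns away. Slits are large secreted repellents read by Robo receptors. Netrins attract growth cones that carry Dcc and repel those that carry Unc5 receptors. Ephrins are held on the cell surface, by a lipid anchor in class A and by a transmembrane segment in class B, and bind Eph receptor tyrosine kinases on contact.

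Libraries held 20402205 to 27717594 assigned reads, with the lowest depth in siUpf1 replicate 2. The siRNA target was measured first. Upf1 (chr8:70331525-70353278 in GRCm38.p6) had 5217 and 5243 normalised reads in the siCtl libraries and 2403, 2496 and 2449 in the siUpf1 libraries, a level of 46.8% of siCtl (log2 fold change -1.10, SE 0.05, DESeq2 adjusted p = 7.1e-101), so every library matched its label. Of 14 markers of sympathetic neuroblastoma and neurons, 13 had a mean of at least 10 normalised reads. Their summed level was 44710 to 44930 normalised reads in siCtl and 51430 to 53970 in siUpf1, with 8 of 14 called higher, among them Mycn and Isl1, and 2 called lower. Marker lists of other cell types were low in both groups. Summed over each list, 4 astrocyte markers gave 34.0 to 52.4 normalised reads in siCtl and 23.2 to 32.6 in siUpf1 with Slc1a3 at 0, and 4 endothelial markers gave 273.6 to 277.4 and 225.0 to 234.7 with Kdr at 0. The 4 fibroblast markers summed to 287.7 to 306.1 and 223.4 to 257.6, the 5 oligodendrocyte and Schwann cell markers to 464.4 to 502.9 and 517.9 to 549.7, and the 4 leukocyte markers to 38.7 to 40.9 and 33.0 to 36.4. The part of the marker differences in the guidance results below was not tested, and in bulk RNA fewer cells of a type and less RNA per cell cannot be told apart.

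Expression of the 69 genes was strongly divided. No read was assigned in any library to 7 genes, namely the secreted semaphorins Sema3a, Sema3c and Sema3e, the ephrin Efnb1, and the Eph receptors Epha3, Epha6 and Ephb6. At these depths 0 reads allow a level of up to 0.108 to 0.147 CPM (counts scaled to the library total), taking 3 counts as the limit and covering counting error only. A further 19 genes had reads but at most 10 in any library and were not tested. They included each of the 4 Robo receptors, Dcc with 2 to 5 reads per library, and Ntn1, the canonical netrin, with 5 to 10 reads per library. The others were Ntn4, Ntn5, Unc5d, Sema3d, Sema5a, Plxna2, Plxnb3, Epha1, Epha2, Epha4, Epha5, Ephb1 and Ephb2. The remaining 43 genes could be tested, and the systems they form were incomplete. N2A cells contained RNA of all 3 Slits but almost none of a Robo, and RNA of 3 Unc5 receptors but almost none of Dcc or of netrins other than Ntn3.

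Compared per length of exon, levels in siCtl spanned a wide range. Values are RPKM, that is assigned reads divided by the exon length of the gene and by the library total, computed from the counts. The receptor Unc5b was highest with 51.2 and 51.1 RPKM in the 2 siCtl libraries, followed by the receptor Plxna1 with 32.5 and 31.3 and by the ligand Slit3 with 21.6 and 21.1. These neighbours in the order did not overlap. The next 3 genes were the receptor Plxnb2 (18.9 and 18.3), the co-receptor Nrp2 (18.8 and 18.1) and the ligand Efna5 (16.9 and 18.5), whose libraries overlapped, so that their order was not resolved. In siUpf1, Slit3 reached 42.6, 40.8 and 44.2 RPKM, above the 37.3, 37.3 and 41.0 RPKM of Plxna1 on average, although these ranges overlapped by library. Unc5b remained highest in siUpf1 with 55.4, 52.9 and 56.8 RPKM.

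**Figure D1:**
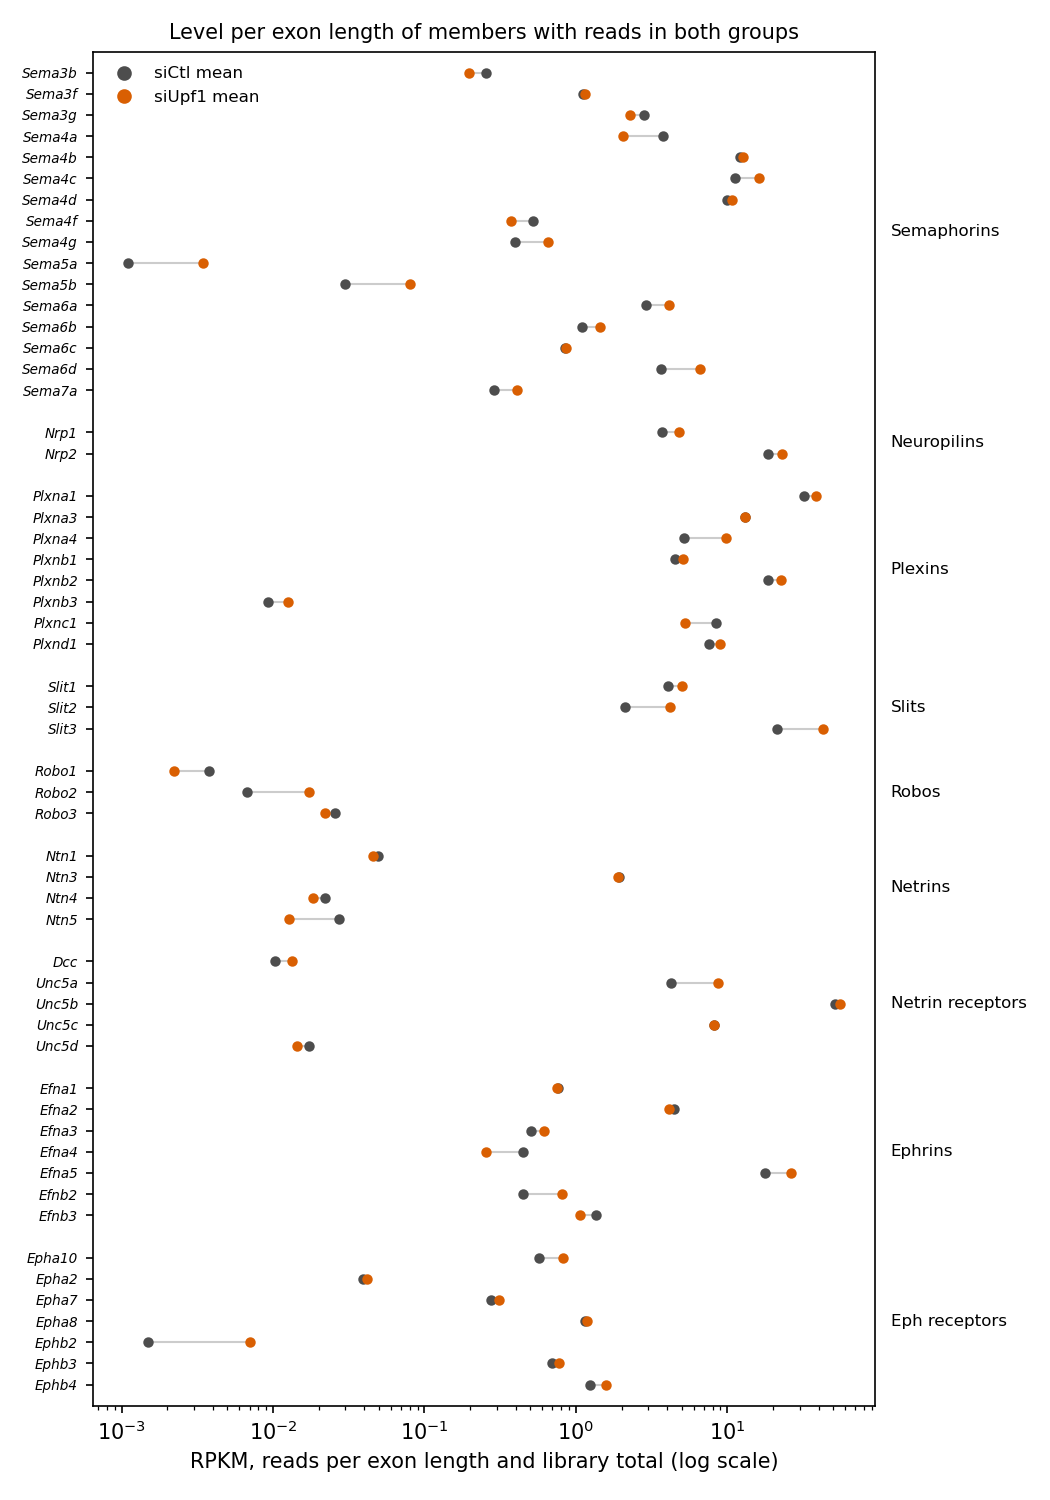
Mean level per exon length, in RPKM on a log axis, of each member with a read in both groups, by family. Grey points are siCtl means (2 libraries) and orange points siUpf1 means (3 libraries). Unc5b, Plxna1 and Slit3 lie furthest to the right, and the Robo receptors, Dcc and the netrins other than Ntn3 lie below 0.1.

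Upon Upf1 knockdown, guidance genes that changed mostly rose. Of the 43 tested, 17 were higher in siUpf1 and 3 were lower at an adjusted p-value under 0.05, and 23 were not called. This is 39.5% higher and 6.98% lower, beside 22.0% higher and 22.9% lower over all 15191 genes tested, and 24.5% and 26.6% over protein-coding genes. The share called in either direction, 46.5%, was near the 44.9% of all genes. Likewise 30 of 43 (69.8%) had groups that did not overlap by library, beside 69.4% of all genes. The median log2 fold change was 0.22, compared with -0.00 over all genes tested and -0.02 over protein-coding genes. It was 0.12 after trends with exon length and GC were taken out of each library, an analysis added after seeing the data. Measured against the siCtl mean in each siUpf1 library, that median was 0.22, 0.23 and 0.16 in replicates 1, 2 and 3. Of 26 ligands tested, 9 rose and 2 fell. Of 17 receptors tested, 8 rose and 1 fell.

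**Figure D2:**
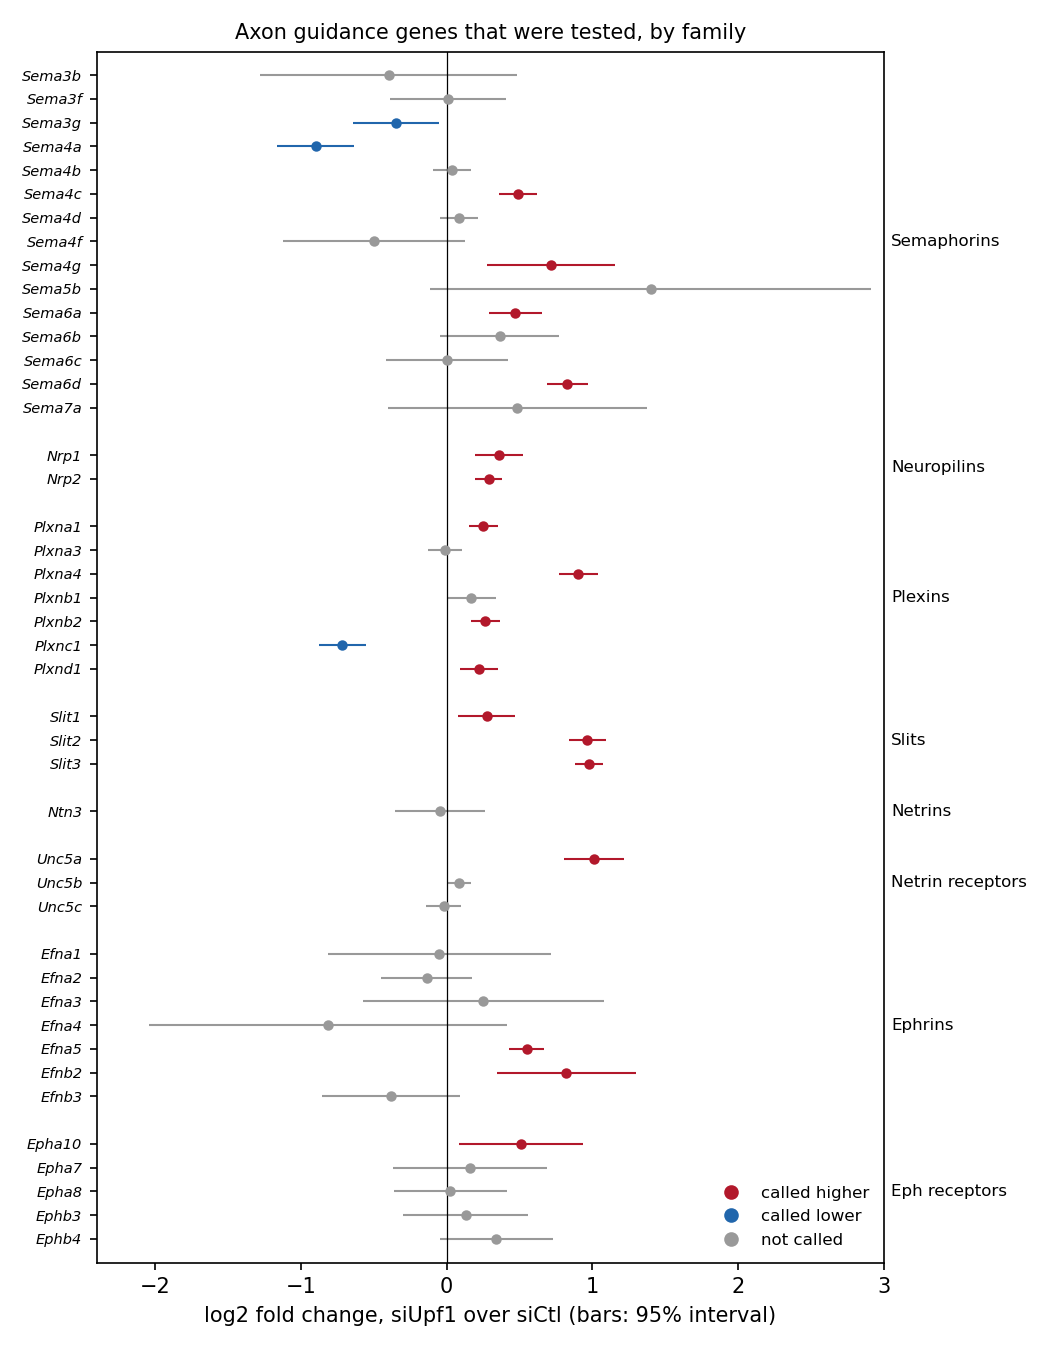
Log2 fold change of siUpf1 over siCtl for the 43 tested members, grouped by family. Points are DESeq2 estimates and bars their 95% intervals, in red for the 17 genes called higher, blue for the 3 called lower and grey for the 23 not called. The neuropilins and Slits lie wholly to the right of 0, whereas semaphorins, plexins and ephrins lie on both sides.

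Among called members the largest increases were those of Unc5a, Slit3 and Slit2. All 3 Slit ligands rose. Slit3 (chr11:35121224-35708507, plus strand) had 3321 and 3214 normalised reads in siCtl and 6283, 6343 and 6621 in siUpf1, a 1.96-fold increase (log2 fold change 0.97, SE 0.05, adjusted p = 3.6e-85). Slit2 (chr5:47983138-48307733, plus strand) had 1362 and 1343 in siCtl and 2614, 2523 and 2783 in siUpf1, a 1.95-fold increase (log2 fold change 0.97, SE 0.07, adjusted p = 7.1e-47). In both genes each siUpf1 library lay far above each siCtl library, and the SD was at most 180.4 normalised reads in either group. Slit1 rose less, with 654 and 566 normalised reads in siCtl and 745, 747 and 720 in siUpf1 (log2 fold change 0.27, SE 0.10, adjusted p = 0.0148). The call for Slit1 was lost in 5 of 12 alternative analyses, including without siCtl replicate 3, siUpf1 replicate 1 or siUpf1 replicate 2, whereas those for Slit2 and Slit3 held in each of the 12. The Robo receptors stayed at the limit of detection. Robo2, the most abundant of the 4, had 1 and 5 reads in siCtl and 10, 4 and 9 reads in siUpf1, which is too few for a test.

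Slit2 and Slit3 each carry in an intron, on the same strand, a gene for the microRNA miR-218. Mir218-1 lies at chr5:48223942-48224051 within Slit2, and Mir218-2 at chr11:35616816-35616925 within Slit3. Both hairpins give the same mature 5′ strand, shown with its seed (bases 2 to 8) in capitals to make plain that these host genes share 1 microRNA product.
mmu-miR-218-5p: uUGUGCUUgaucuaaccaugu
Poly(A) libraries do not measure mature microRNAs. Reads assigned to the hairpin genes numbered 10 and 7 in siCtl and 21, 12 and 28 in siUpf1 for Mir218-2, and at most 2 per library for Mir218-1. Such reads may come from unspliced host RNA, and no test was made on them.

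Among netrin receptors, 1 of 3 tested rose. Unc5a (chr13:54949411-55006018, plus strand), a receptor for repulsion by netrin, had the largest increase of all called members, from 491 and 405 normalised reads in siCtl to 884, 939 and 883 in siUpf1 (2.02-fold, log2 fold change 1.01, SE 0.10, adjusted p = 3.2e-21). Its paralogues behaved otherwise. Unc5b (chr10:60762593-60831581, minus strand) had 8139 and 8020 normalised reads in siCtl and 8424, 8469 and 8778 in siUpf1. Each siUpf1 library of Unc5b was above both siCtl libraries, but the difference was small and was not called (log2 fold change 0.08, SE 0.04, adjusted p = 0.0996). Unc5c was not called either (log2 fold change -0.02, 95% interval -0.14 to 0.10), but was called lower at -0.20 (adjusted p = 6.6e-05) once the trend of each library with transcript length and GC content was removed. Of the netrins, Ntn3 alone was abundant enough to test. It had 255 and 244 normalised reads in siCtl and 213, 260 and 255 in siUpf1, and the groups overlapped (log2 fold change -0.04, SE 0.16, adjusted p = 0.85).

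The start regions of Slit2, Slit3 and Unc5a, the 3 called members with the largest increases, are printed because these genes rose by nearly the same amount. Each line gives 300 bases on the plus strand of GRCm38.p6 from RefSeq, 250 before and 50 after the annotated start, with the GC box (GGGCGG, or CCGCCC on the other strand) in capitals.
Slit2, chr5:47982905-47983204: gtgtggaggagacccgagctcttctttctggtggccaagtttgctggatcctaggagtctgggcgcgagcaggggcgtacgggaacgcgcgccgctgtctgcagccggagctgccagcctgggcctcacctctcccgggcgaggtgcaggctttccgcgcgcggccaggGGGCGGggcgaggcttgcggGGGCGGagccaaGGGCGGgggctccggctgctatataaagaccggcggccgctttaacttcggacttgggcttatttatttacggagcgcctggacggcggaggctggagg
Slit3, chr11:35121206-35121505: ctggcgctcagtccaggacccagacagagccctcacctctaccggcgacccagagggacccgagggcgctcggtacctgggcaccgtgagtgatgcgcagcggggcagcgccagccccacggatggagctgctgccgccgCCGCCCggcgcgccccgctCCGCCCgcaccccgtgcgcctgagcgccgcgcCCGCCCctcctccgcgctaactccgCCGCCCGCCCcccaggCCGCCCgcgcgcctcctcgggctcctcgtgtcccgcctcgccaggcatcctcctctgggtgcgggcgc
Unc5a, chr13:54949161-54949460: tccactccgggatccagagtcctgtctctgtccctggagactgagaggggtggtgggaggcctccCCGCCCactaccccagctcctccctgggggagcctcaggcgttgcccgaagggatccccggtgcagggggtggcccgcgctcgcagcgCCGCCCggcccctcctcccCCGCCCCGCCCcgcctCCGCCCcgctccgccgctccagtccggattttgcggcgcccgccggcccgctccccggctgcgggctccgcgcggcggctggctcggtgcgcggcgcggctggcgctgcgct
The windows held 3, 6 and 5 GC boxes, counting matches that overlap one another, and a GC box occurs in 35.66% of 32851 RefSeq promoter windows of this length. Slit2 also held the letters TATAAA, which occur in 13.62% of the windows, and the other 2 genes did not. None of the 3 held CACGTG (7.15% of windows) or CCAAT (37.41% of windows) on either strand. GC boxes were not limited to these genes. Among members that fell, the window of Plxnc1 held 4, that of Sema3g 1 and those of Sema4a 0 to 2. Efna5 and Sema4g, which rose less, held 4 each. These matches are letters in a window, not sites of binding.

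**Figure D3:**
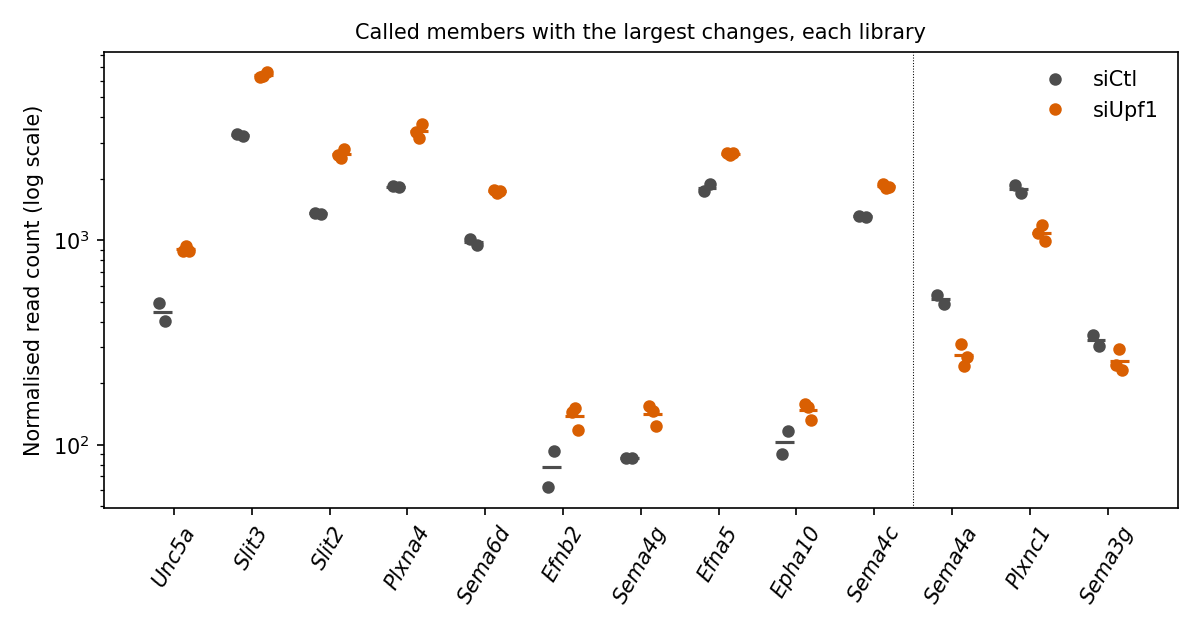
Normalised read count on a log axis in each library for the 10 called members with the largest increases (left of the dotted line) and the 3 called lower (right of it). Grey points are siCtl libraries, orange points siUpf1 libraries and short lines the group means. The groups do not overlap in any of the 13 genes shown, which were picked because they were called. Over all genes tested, 69.4% did not overlap.

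Of the semaphorins, 15 of 20 were tested, 4 rose, 2 fell and 9 were not called. This is 26.7% higher and 13.3% lower, beside 22.0% and 22.9% of all genes tested. All 4 that rose were membrane-bound, as were all tested semaphorins except the 3 of class 3. Sema6d (chr2:124089969-124667770, plus strand), a ligand of class A plexins, had 1011 and 943 normalised reads in siCtl and 1754, 1704 and 1732 in siUpf1 (1.77-fold, log2 fold change 0.83, SE 0.07, adjusted p = 7.3e-29). The study lists RT-qPCR primers for Sema6d. The RT-qPCR it describes was on cortex and cortical cultures of wild-type and Fmr1-knockout mice, not on these N2A cells. It assayed NMD targets, which the study defined in part from this knockdown, so the direction of Sema6d here is not independent evidence. The primer pair for the mRNA, printed to show which Sema6d RNAs it can reach, was matched to the 11 annotated transcripts.
Sema6d sense primer: aatatccggtttttagaggacgc
Sema6d antisense primer: tgcttgcctttcatagcacaat
Each matched 9 of 11 transcripts, whereas the gene-level count sums reads of all 11. The study's pre-mRNA primers for Sema6d, not printed here, each matched 1 of 11. Sema6a, a ligand of Plxna4, rose from 645 and 646 to 953, 885 and 846 normalised reads (log2 fold change 0.47, SE 0.09, adjusted p = 2.1e-06).

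Class 4 semaphorins went in both directions. Sema4c, a ligand of Plxnb2, rose from 1308 and 1305 normalised reads to 1885, 1805 and 1822 (log2 fold change 0.49, SE 0.07, adjusted p = 1.8e-12). Sema4g rose from 86.0 and 85.9 to 153.9, 146.8 and 123.0 (log2 fold change 0.72, SE 0.22, adjusted p = 0.0042). This call was lost when either siCtl library was left out and with the replicate number as a block. In contrast, Sema4a (chr3:88435959-88461182, minus strand), a ligand best known from the immune system, fell from 538 and 489 to 310, 244 and 268 normalised reads (log2 fold change -0.90, SE 0.13, adjusted p = 2.0e-10), to 53.4% of siCtl. The most abundant semaphorin by count, Sema4d, a ligand of Plxnb1, was not called, with 2001 and 1838 normalised reads in siCtl and 2006, 2106 and 1991 in siUpf1 (log2 fold change 0.08, SE 0.07, adjusted p = 0.32). Sema4b was not called either (log2 fold change 0.04, 95% interval -0.09 to 0.16).

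Secreted semaphorins contributed little. Of 7 class 3 genes, 3 had no read, Sema3d had at most 1 read per library and 3 were tested. Sema3g, which binds Nrp2, fell from 345 and 305 normalised reads to 246, 292 and 231 (log2 fold change -0.35, SE 0.15, adjusted p = 0.0476). This call sat at the threshold and was lost in 7 of 12 alternatives, including without siCtl replicate 1, siCtl replicate 3, siUpf1 replicate 1 or siUpf1 replicate 3. Sema5b had the largest fitted value of the 43 tested members (log2 fold change 1.40, SE 0.77, adjusted p = 0.13), but it rested on 3.15 and 7.55 normalised reads in siCtl and 16.0, 11.3 and 15.2 in siUpf1. It was not called by DESeq2 and was called by edgeR (adjusted p = 0.0224). The other semaphorins tested, apart from Sema7a, were not called, with log2 fold changes from -0.50 (SE 0.32) for Sema4f and -0.40 (SE 0.45) for Sema3b, through 0.01 for Sema3f and 0.00 for Sema6c, to 0.36 (SE 0.21) for Sema6b, which edgeR called higher (adjusted p = 0.0279).

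Both neuropilins, the ligand-binding co-receptors for class 3 semaphorins, rose. Nrp2 had 5635 and 5370 normalised reads in siCtl and 6604, 6603 and 6951 in siUpf1 (1.22-fold, log2 fold change 0.29, SE 0.05, adjusted p = 1.0e-08). Nrp1 rose by 0.36 on the log2 scale (SE 0.08, adjusted p = 8.6e-05). Neither gene had overlapping groups, and both calls held in each of the 12 alternatives.

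Of the plexins, the signalling receptors for semaphorins, 7 of 9 were tested, 4 rose, 1 fell and 2 were not called. Plxna4 (chr6:32144268-32588192, minus strand), which pairs with Nrp1 in the receptor for secreted semaphorins, had 1837 and 1824 normalised reads in siCtl and 3376, 3158 and 3716 in siUpf1 (1.87-fold, log2 fold change 0.90, SE 0.07, adjusted p = 8.1e-38). Its paralogues changed far less. Plxna1, the most abundant plexin, had 7467 and 7110 in siCtl and 8211, 8647 and 9173 in siUpf1 (1.19-fold, log2 fold change 0.25, SE 0.05, adjusted p = 5.7e-06). Plxna3 was not called (log2 fold change -0.01), and its 95% interval of -0.13 to 0.11 lay below the interval of Plxna4, 0.77 to 1.04. Plxna2 had at most 1 read per library. Of the B plexins, Plxnb2 rose by 0.26 on the log2 scale (adjusted p = 1.4e-06) and Plxnb1 was not called (0.17, adjusted p = 0.088), although it was called higher without siUpf1 replicate 1 and by edgeR. Plxnd1, the receptor of the undetected Sema3e, rose by 0.22 (adjusted p = 0.0032). This call was lost without siCtl replicate 1, with the replicate number as a block, and once trends with length and GC were removed.

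Plxnc1 (chr10:94790866-94944835, minus strand), the receptor of Sema7a, was the only plexin called lower. It had 1861 and 1705 normalised reads in siCtl and 1081, 1190 and 995 in siUpf1, a fall to 61.1% of siCtl (log2 fold change -0.71, SE 0.08, adjusted p = 8.1e-17) that held in each of the 12 alternatives. Its ligand Sema7a was low, with 20.8 to 43.6 normalised reads over all libraries, and was not called (log2 fold change 0.49, SE 0.45, adjusted p = 0.41).

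Ephrins were detected more broadly than their receptors. Of 8 ephrins, 7 were tested, 2 rose and 5 were not called. Efna5 (chr17:62604184-62881317, minus strand), the lipid-anchored repellent known from topographic maps, had 1732 and 1874 normalised reads in siCtl and 2675, 2595 and 2654 in siUpf1 (1.47-fold, log2 fold change 0.55, SE 0.06, adjusted p = 4.5e-18). Efnb2, the transmembrane ligand of Ephb4, rose at low counts from 61.9 and 93.4 to 145.0, 150.6 and 118.6 normalised reads (1.77-fold, log2 fold change 0.82, SE 0.24, adjusted p = 0.0024). The call for Efnb2 was lost with the replicate number as a block and without siCtl replicate 1, where the log2 fold change was 0.56. Efna1, Efna2, Efna3, Efna4 and Efnb3 were not called, with log2 fold changes of -0.82 (SE 0.63, Efna4) to 0.25 (SE 0.42, Efna3). Of 14 Eph receptors, only 5 were tested and 1 was called. Epha10, a receptor without kinase activity, had 90.2 and 117.0 normalised reads in siCtl and 158.3, 153.1 and 132.8 in siUpf1 (log2 fold change 0.51, SE 0.22, adjusted p = 0.0423), a call that was lost in 8 of 12 alternatives and when any 1 library was left out. Ephb4, the most abundant Eph receptor by count, had 159.3 and 129.3 in siCtl and 173.4, 159.4 and 212.2 in siUpf1. The lowest siUpf1 library lay just above the highest siCtl library, and the gene was not called (log2 fold change 0.34, SE 0.20, adjusted p = 0.16). It was called by edgeR (adjusted p = 0.0464). Epha7, Epha8 and Ephb3 were not called, with log2 fold changes of 0.16, 0.03 and 0.13.

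What the called genes shared in their annotated mRNAs was then examined, using 1 representative transcript per gene from GENCODE M21. An upstream ATG, that is an ATG in the 5′ UTR, was present in 16 of the 17 members that rose, the exception being Efna5. It was present in 8 of the 23 members not called and in 2 of the 3 that fell. The 16 include Epha10, whose call was lost in most alternatives. Its representative transcript has 3 exons and a coding sequence of 879 nt, beside a median of 2772 nt in tested members, and may not be the full-length form. Over all protein-coding genes tested the share was 51.64%, with 58.17% among genes called higher, 50.54% among those not called and 47.65% among those called lower. Long 5′ UTRs hold more ATGs, and the median 5′ UTR was 490 nt in members that rose, 281 nt in members not called and 177 nt over protein-coding genes tested. Among genes with a 5′ UTR of at least 200 nt, 16 of 16 risen members and 7 of 14 members not called had an upstream ATG. This cut leaves out Efna5, whose 5′ UTR is 187 nt. Of all such protein-coding genes 78.82% had an upstream ATG, with 82.66% of those called higher, 79.4% of those not called and 73.58% of those called lower. The number of upstream ATGs ranged from 1 in Unc5a, Slit1, Plxnd1, Sema4c and Efnb2 to 10 in Sema4g. These are descriptions of annotation, and the isoform that N2A cells use can differ. The part of upstream ATGs in the increases was not tested.

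**Figure D4:**
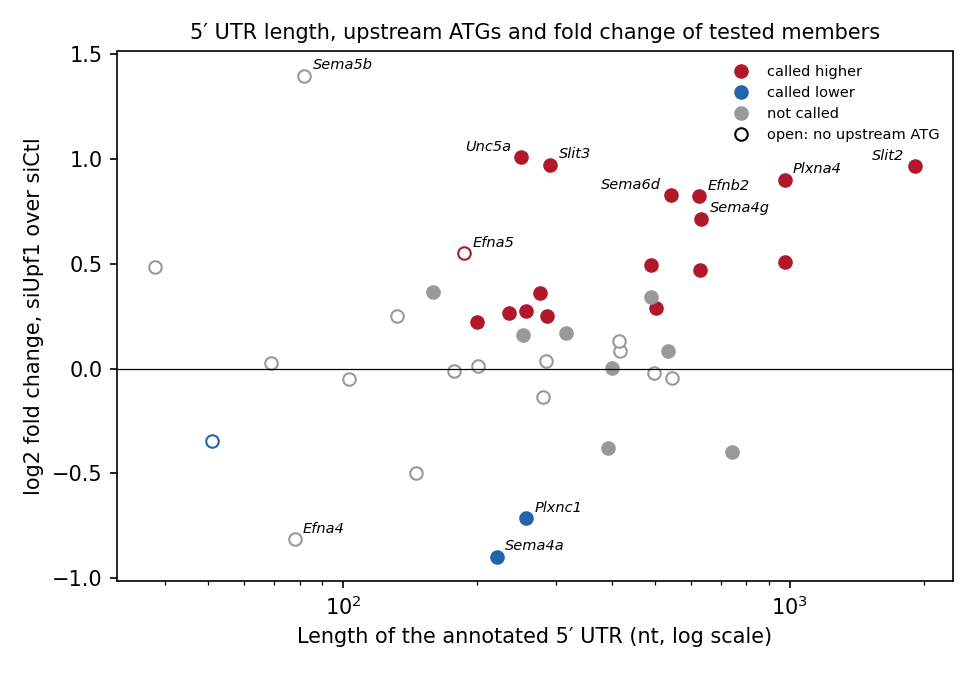
Length of the annotated 5′ UTR in nt on a log axis against the log2 fold change of siUpf1 over siCtl for the 43 tested members, 1 point per gene. Filled points have at least 1 upstream ATG and open points have none, in red for called higher, blue for called lower and grey for not called. Filled points make up 16 of the 17 red points and 8 of the 23 grey points.

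Other annotated features that can mark NMD targets were also counted. An isoform annotated as subject to NMD was listed for 3 of these 17 genes (Sema4g, Plxna1 and Slit2), for 2 of the 3 that fell (Sema4a and Plxnc1) and for 8 of the 23 not called, beside 28.45% of protein-coding genes tested. No tested member had an exon junction more than 50 nt downstream of the stop codon in its representative transcript, and 0.44% of protein-coding genes did. The median 3′ UTR was 1400 nt in members that rose, 1220 nt in members not called and 2146 nt in the 3 that fell. Over protein-coding genes tested it was 1452 nt in those called higher, 887 nt in those not called and 811 nt in those called lower. Counts per gene do not separate isoforms. Members were also long, with a median of 6067 nt of exon sequence beside 4442 nt for protein-coding genes tested. In these libraries 34.13% of genes with over 8 kb of exon sequence were called higher and 12.78% of those with up to 2 kb. With each library's trend with length and GC content removed, 14 members were called higher and 4 lower.

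Whether the Upf1 siRNA itself could pair with members was looked at by its seed, bases 2 to 8. The seed is shown in capitals in the strand listed for the study and in the complementary strand derived from it.
Upf1 siRNA, sense strand: uCAAGGUUccugauaauua
Upf1 siRNA, antisense strand: uAAUUAUCaggaaccuuga
A 3′ UTR match to the antisense seed (GATAATT) occurred in 5 of the 43 tested members. Of these Slit2 and Sema6a rose, and Unc5c, Sema4d and Epha7 were not called. A match to the sense seed (AACCTTG) occurred in Plxnc1, which fell, and in Efna3, which was not called. The sites in 2 members that changed are printed with the match in capitals.
Slit2, chr5:48306821-48306849, plus strand: tcccacagccaGATAATTattagcaaagc
Plxnc1, chr10:94791802-94791830, minus strand: tcagccaatcaAACCTTGagcacacattc
Median log2 fold changes were taken over tested mRNAs averaging at least 50 normalised reads, with a 3′ UTR of at least 50 nt. With an antisense seed match the median was -0.00 (886 mRNAs), against -0.02 in 10069 without one. For the sense seed it was -0.10 (1138 mRNAs) against -0.01 in 9817. Values were also taken for GCAGTAC, a 7-base sequence that matches neither seed. With it the median was 0.24 (600 mRNAs), against -0.02 in 10355 without it. This sequence was chosen with earlier results of these data known, so its shift is not ranked against those of the seeds. GCAGTAC was present in 10.22% of protein-coding genes called higher, 3.71% of those not called and 2.99% of those called lower. Of the tested members only Efnb2, which rose, held it in its 3′ UTR. The part of these matches in the values of Slit2, Plxnc1 or Efnb2 was not tested.

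Other genes of the pathway were counted in the same way, in lists chosen with earlier results of these data known. The shares called describe these lists only. A list of 35 further guidance receptors and ligands was taken, such as neogenin, the repulsive guidance molecules and adhesion molecules of the L1 and contactin families. Of 23 tested, 17 rose (73.9%, beside 22.0% of all genes), 1 fell and 5 were not called, with a median log2 fold change of 0.60. Rgmb, a repulsive guidance molecule, rose from 86.0 and 95.3 to 239.2, 219.6 and 216.6 normalised reads (log2 fold change 1.31, SE 0.19, adjusted p = 8.0e-11). Flrt3, a leucine-rich repeat protein that binds Unc5 receptors, rose by 1.31 (SE 0.23, adjusted p = 9.4e-08) and Wnt5a, a ligand of the guidance receptor Ryk, by 1.22 (SE 0.14, adjusted p = 6.1e-18). The gene that fell was Rtn4, which encodes the myelin inhibitor Nogo, from 9942 and 9897 to 6956, 6622 and 6313 normalised reads (log2 fold change -0.58, SE 0.05, adjusted p = 5.8e-32).

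Intracellular effectors were more evenly divided. Of 60 listed, 56 were tested, 26 rose (46.4%), 8 fell (14.3%) and 22 were not called, with a median log2 fold change of 0.21. Srgap1, a GTPase-activating protein that binds Robo, had the largest increase, from 30.4 and 22.6 to 74.7, 87.9 and 89.1 normalised reads (log2 fold change 1.67, SE 0.33, adjusted p = 2.9e-06). Pak2, a kinase activated by Rac and Cdc42, rose by 1.10 (SE 0.07, adjusted p = 9.0e-59) and Vav3, a guanine nucleotide exchange factor, by 0.84 (SE 0.10, adjusted p = 3.2e-17). The largest decrease was in Vasp, which promotes actin filament growth at the leading edge, from 4158 and 3892 to 1717, 1704 and 1598 normalised reads (log2 fold change -1.27, SE 0.06, adjusted p = 2.4e-94). Dpysl2, the semaphorin mediator also called CRMP2, fell by 0.48 (adjusted p = 2.5e-14) and Gipc1, an adaptor that binds Nrp1, by 0.47 (adjusted p = 5.7e-10).

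**Figure D5:**
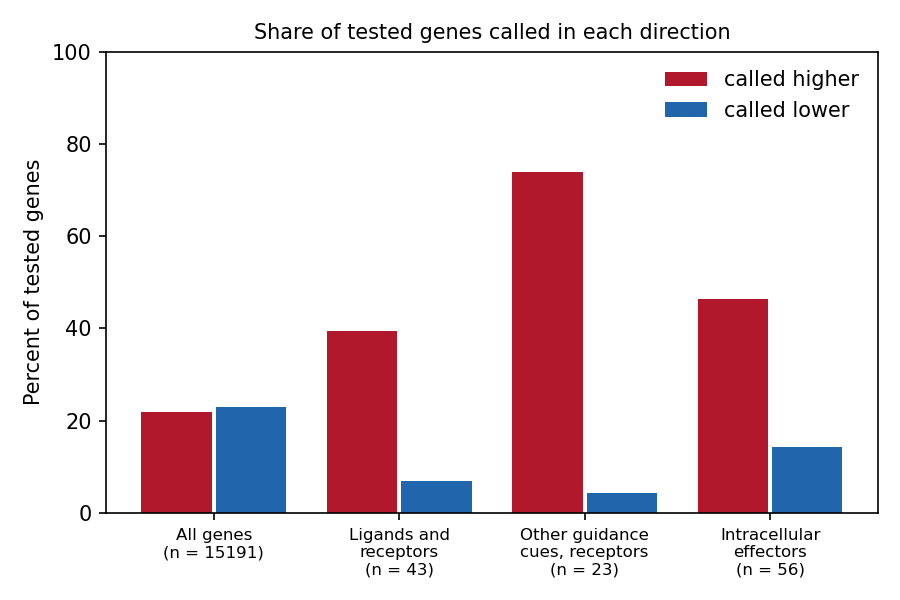
Percent of tested genes called higher (red) and lower (blue) in siUpf1 at a DESeq2 adjusted p-value under 0.05, for all 15191 genes tested, the 43 ligands and receptors, the 23 other guidance cues and receptors and the 56 intracellular effectors. The red bars of the 3 guidance lists, 39.5%, 73.9% and 46.4%, stand above the 22.0% of all genes. Their blue bars, 6.98%, 4.35% and 14.3%, stand below 22.9%. The lists were chosen with earlier results of these data known.

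The calls of ligands and their receptors were also set side by side, without a test of the difference. Slit2 and Slit3 rose while their Robo receptors had at most 10 reads per library. Unc5a rose while Ntn3 was not called and the other netrins had at most 10 reads per library. Sema3g fell and Nrp2 rose. Plxnc1 fell and Sema7a was not called. Sema6d rose, and of the class A plexins Plxna1 and Plxna4 rose and Plxna3 was not called. Both sides rose for Sema6a and Plxna4, and for Sema4c and Plxnb2. Sema4d and Plxnb1 were not called. Efnb2 rose and Ephb4 was not called. RNA levels alone were measured, and protein was not.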

How the data were processed

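RNA-seq of 5 N2A libraries (2 siCtl, 3 siUpf1) was analysed from raw read counts per gene deposited by the authors. They trimmed reads with fastp, mapped them to GRCm38.p6 with STAR in two-pass mode and counted exon reads on the reverse strand with featureCounts (Subread 1.6.4, GENCODE M22 or M25). Libraries were grouped by their labels. The paper describes Western blots of the siRNA-treated cells used for this RNA-seq as representing 3 independent experiments. It does not state which library came from which experiment or culture. The p-values therefore measure the spread between these libraries, which may be technical.

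Counts were fitted over all genes with DESeq2 1.42.0 (Wald test, R 4.3.3, group only, median-of-ratios size factors, independent filtering), as in the study's methods, with Benjamini-Hochberg adjustment over all 15191 genes tested. Genes with an adjusted p-value under 0.05 were called. Log2 fold changes are siUpf1 over siCtl with SE or 95% interval. With 2 against 3 libraries an exact permutation test cannot go below p = 0.1. Alternatives were edgeR 4.0.16 (quasi-likelihood), TMM or total-count size factors, a minimum of 10 counts in 2 libraries, no filter, the replicate number as a block, leaving out each library, and removal of trends with length and GC. The script was tested on simulated counts.

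Members and lists were chosen with earlier results of these data known. Values per library are given for Upf1, Sema6d, the most abundant member of each family, and the 10 largest changes each way among called members averaging 50 or more normalised counts, and in part for the 3 largest each way of other lists. Genes added after their values were seen were Slit1, Plxnb2, Sema6a, Sema5b, Sema7a, Mir218-1 and Mir218-2. Transcript features came from GENCODE M21 and promoter and microRNA sequences from RefSeq (GRCm38.p6). Medians by seed match covered tested mRNAs averaging 50 or more normalised counts, with 3′ UTRs of at least 50 nt.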

Additional observations from a re-analysis of the deposited data

How the results depend on the processing

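Of the 20 called members, 14 kept their call and direction in each of the 12 alternatives and 0 changed sign. The others were Sema3g, Epha10, Sema4g, Efnb2, Plxnd1 and Slit1. Across alternatives 12 to 21 members were called higher (edgeR gave 21) and 2 to 4 lower, and 5 members not called in the main analysis were called in at least 1 alternative. Of 348 further values of the 29 named genes that were fitted, 326 kept direction and side of the threshold, 20 lost the threshold and 1, Ephb4 by edgeR, passed it. Some members outside the 29 and not called also changed sign, such as Unc5c in 4 and Sema6c in 6 of 12 alternatives. Among the 29 the sign changed for Ntn3 alone. Its log2 fold change of -0.04 ranged from -0.094 (without siUpf1 replicate 2) to 0.044 (without siUpf1 replicate 1, adjusted p = 0.87) when 1 library was left out. Leaving out 1 library gave a median log2 fold change of members of 0.17 (without siCtl replicate 3) to 0.23 (without siUpf1 replicate 1). With trends with length and GC removed, an alternative chosen after seeing the data, that median was 0.12 and 2 other guidance receptors and ligands were called lower in place of 1. The cause of these shifts was not tested.

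Pairing of libraries by replicate number was not seen, but the check cannot exclude it. Deviations of the 2 siCtl libraries from their mean mirror each other, so the correlations below are not separate checks. Deviations from the group means of same-numbered libraries correlated at r = -0.0861 for number 1 and -0.0748 for number 3 across 11898 genes, which are not independent replicates, and number 2 has no siCtl library. With the replicate block, which leaves fewer residual degrees of freedom, 12 members were called higher and 2 lower, the median was 0.19 and the log2 fold change of Upf1 was -1.11. Without 1 siCtl library, the other is assumed to vary like the siUpf1 libraries. Depth limits the 26 members that were not tested, and intervals of members under 50 normalised reads span over 1 log2 unit.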
